A study of Drosophila melanogaster with 2 samples.

Results

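The genes described here are 8 genes of the Drosophila tracheal system, vvl, trh, kni, knrl, btl, bnl, rho and emp. They were chosen by name for their role in the trachea, and vvl, trh and kni also because they are known as STAT targets repressed by Ken. They are 8 of 13968 protein-coding genes on the main chromosome arms, and all 8 are among the 12473 genes with a candidate summit, a peak of any rank, within 1000 bp of a transcription start site (TSS). Of the 8 genes, 6 lie on 3L, bnl lies on 3R and emp lies on 2R.

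The study mapped by ChIP-seq where Ken, the BTB zinc finger protein of ken and barbie, was recovered on chromatin. There was 1 group, whole embryos of 0 to 24 h from the strain ken-GFP, which carries an insertion that makes a Ken-eGFP fusion, and it had 2 biological replicates. Sonicated chromatin of 200 to 800 bp was pulled down with anti-GFP according to the sample description, although the antibody field of the labels names ken. The sex was not collected, and no control library was analysed here. Every embryonic stage and tissue was mixed in a sample, and the tracheal cells are a minority of them, so an absent peak and a peak in few cells cannot be told apart.

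The trachea is the branched network of epithelial tubes that carries air to the tissues of the fly. It arises from placodes in the embryonic ectoderm, where trh and vvl are switched on, the EGF pathway helps cells to invaginate, and the FGF ligand Branchless draws out branches that carry the FGF receptor Breathless. JAK-STAT signalling acts upstream of trh in this tissue. Ken is known to bind a DNA sequence that overlaps a subset of STAT92E sites and to lower the expression of the genes behind them.

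The sites at which both factors could meet are shown first, because they are the sequences for which vvl, trh and kni are of interest. The Ken consensus was searched as GNGAAA followed by G or T, and the STAT92E site as TTCNNNGAA, on both strands, and a joint site is a STAT92E match that runs into a Ken match (TTC, 1 base, then the Ken consensus). Capitals mark the joint match, and each sequence reads 5′ to 3′ on the strand of the match, from the release 6 assembly (dm6 coordinates).
vvl, chr3L:6789317-6789346, plus strand: tcaacagaaTTCAGCGAAATttgaattgtc
trh intron, chr3L:373160-373189, plus strand: tggtttgccTTCAGTGAAATcaaaactgtt
trh intron, chr3L:384675-384704, minus strand: tggaatgaatTTCGGTGAAAGtaatgaaac
bnl intron, chr3R:19811165-19811194, minus strand: atgtaaaagaTTCTGAGAAATttgaccgag

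These were 4 of the 5 joint sites within the 8 genes and 10 kb on either side of each. There was 1 at vvl, 827 bp from its TSS in intergenic sequence. There were 2 in introns of trh, 1 at btl, not printed, 66 bp from a TSS, and 1 in an intron of bnl, 25638 bp from its TSS. The genes kni, knrl, rho and emp had 0. In the window from 250 bp before to 50 bp after a TSS, btl was the only 1 of the 8 genes with a joint site, and 0.898% of all genes had one.

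The joint sites lay mostly away from candidate summits. The minus-strand site in trh was 13 bp from a candidate with a pooled signal of 41.4, higher than 91.8% of the candidates outside the conservative list. Replicate 1 gave it a signal of 15.2 and replicate 2 one of 24.2, and it had a −log10 global IDR of 0.19, far from the 2 that the conservative list requires. IDR is the irreproducible discovery rate, so a peak ranked high in both of the read sets compared has a high −log10 value. The other 4 sites were between 402 and 1209 bp from the nearest candidate, and the pooled signals of those candidates ranged from 6.51 to 22.2. Over the main arms, 20.5% of the 3022 joint sites lay within 100 bp of a candidate and 10 of them, or 0.331%, within 100 bp of a conservative summit.

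A gene is called bound where a summit of the conservative list, made from both replicates, lay within 1000 bp of any of its TSSs. Only emp was bound, 1 of the 8 genes, against 19.2% of all genes tested. In the other thresholded list from both replicates, 1 of the 8 was again bound, against 20.7% of all genes, and it was again emp. In the list of replicate 1 alone 0 of the 8 were bound, against 14.6% of all genes, and in that of replicate 2 alone 0 of the 8, against 18.2%. No test was made over 8 genes in 1 group, and a count of 0 or 1 of 8 lies near shares of this size.

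Each gene nevertheless had candidates, 29 in all, with values that fell in the body of the distribution over all genes. The signal is the authors' value for a peak and has no stated scale. The median of the highest signal within 1000 bp of a TSS was 48.0 over the 8 genes and 39.7 over all 12473 genes, 153 over the 2400 bound genes and 35.3 over the 10073 others. The median percentile of the 8 genes among all genes was 63.6. From low to high the genes stood in the order btl at 22.3, kni at 38.7, rho at 46.9, trh at 48.0, vvl at 48.1, knrl at 48.4, bnl at 57.8 and emp at 75.5. The values of rho, trh, vvl and knrl were close together, and their order was not kept in either replicate.

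**Figure D1:**
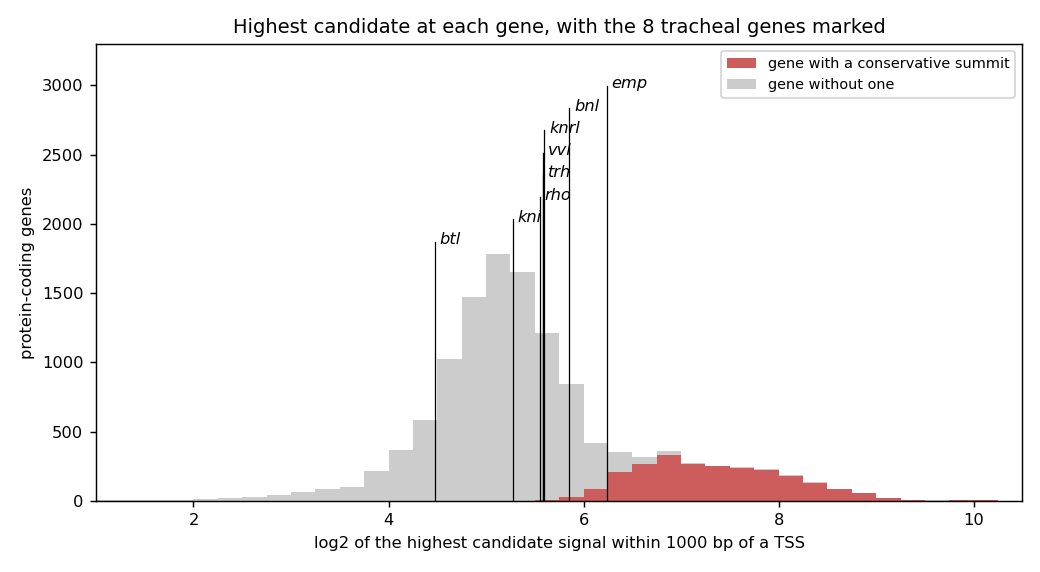
Distribution of the highest candidate signal within 1000 bp of a TSS over 12473 protein-coding genes (x axis on a log2 scale, y axis genes per bin), stacked for genes with a conservative summit (red) and without one (grey); black lines mark the 8 tracheal genes. The lines run from btl at a signal of 22.3 to emp at 75.5, and apart from emp they stand where nearly all genes are grey.

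The histogram places 7 of the 8 genes among the genes without a conservative summit. Among those 10073 genes alone, the percentiles ran from 14.6 for btl to 89.6 for bnl over the 7 genes.

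Of the known STAT targets, vvl encodes a POU-domain transcription factor that acts with Trachealess in the tracheal placode. It spans 6790158 to 6794941 on 3L, on the plus strand, with 1 TSS and 1 candidate within 1000 bp of it. This candidate, at 6790765 to 6791174 in the coding exon 812 bp downstream of the TSS, had a pooled signal of 48.1, with 33.4 in replicate 1 and 13.97 in replicate 2. Replicate 1 put it above 96.7% of all its candidates and replicate 2 above 62.1% of its own, so the replicates ranked it differently. Its −log10 global IDR was 0.15 in the ranking of the conservative list, 1.10 in that of the other pooled list and 1.45 in replicate 1 alone, each under 2.

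The gene trh encodes the bHLH-PAS factor Trachealess, which pairs with Tango and specifies the tracheal fate. It spans 366524 to 392633 on 3L, on the minus strand, and its 2 TSSs had 6 candidates within 1000 bp. The highest, at 377982 to 378391 in an intron and 871 bp upstream of the inner TSS, had a pooled signal of 48.0, with 25.3 in replicate 1 and 12.9 in replicate 2. Its −log10 global IDR was 0.17. The other 5 candidates ranged from 3.93 to 40.7 in pooled signal, and 3 of them were in 5′ UTR. Farther out, the highest of the 43 candidates whose nearest coding TSS was that of trh lay 18575 bp upstream, with a signal of 72.2 and a −log10 global IDR of 1.78, and it did not pass.

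The gene kni encodes Knirps, a zinc finger factor related to nuclear receptors, which is needed for dorsal and visceral branches. It spans 20692330 to 20695378 on 3L, on the minus strand, with 2 TSSs and 3 candidates. The highest, at 20693608 to 20694017 in the coding exon, had a pooled signal of 38.7, with 24.1 in replicate 1 and 10.7 in replicate 2, and a −log10 global IDR of 0.14. A second candidate in the same exon took the signals of the same replicate candidates. The paralogue knrl, at 20597141 to 20620659 on 3L, acts in the same branches and had 2 candidates, both in its 5′ UTR. The higher, 331 bp downstream of the TSS, had a pooled signal of 48.4, with 17.6 in replicate 1 and 23.1 in replicate 2, and a −log10 global IDR of 0.36.

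The FGF pair gave the lowest value and the highest value without a call. The receptor gene btl spans 14075772 to 14083229 on 3L on the plus strand. The highest of its 5 candidates lay 713 bp upstream of a TSS, with a pooled signal of 22.3, with 24.8 in replicate 1 and 5.58 in replicate 2. This value exceeded that of 11.8% of all genes. The highest candidate of btl in replicate 1 exceeded that of 52.0% of genes and the one in replicate 2 that of 1.71%.

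The ligand gene bnl spans 19794073 to 19836817 on 3R, on the minus strand, and had 1 TSS with 1 candidate, at 19836678 to 19837087. Its summit lay 66 bp upstream of the TSS and its pooled signal, 57.8, stood beside 33.3 in replicate 1 and 31.9 in replicate 2. These replicate values exceeded 96.6% and 97.3% of the candidates of their lists, so the replicates ranked it alike. The −log10 global IDR was 1.87 in the ranking of the conservative list and 1.27 in the other, both under the threshold of 2. Of the 146958 candidates outside the conservative list 99.8% had a lower value, and 170, this one included, lay from its value up to the threshold. Still, 1046 of the 10073 genes that were not bound, bnl included, had a signal as high or higher within 1000 bp of a TSS.

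Of the last pair, rho encodes Rhomboid, the membrane protease that frees the EGF ligand Spitz, and it lies wholly within Ptp61F, which encodes a phosphatase that acts on the JAK-STAT pathway. It spans 1463811 to 1468944 on 3L, on the plus strand, with 1 TSS and 3 candidates. The highest was 133 bp downstream of the TSS in the 5′ UTR with a pooled signal of 46.9, with no candidate within 200 bp in replicate 1 and 19.8 in replicate 2. The next, 341 bp downstream, had 46.4, with 26.8 in replicate 1 and 17.2 in replicate 2. Their −log10 global IDR values were 0.67 and 0.46. The promoter of Ptp61F itself carried a conservative peak with a signal of 343.

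The gene emp encodes a scavenger receptor of the CD36 family that sits at epithelial membranes. It spans 24976456 to 24986070 on 2R, on the minus strand, with 4 TSSs and 8 candidates. Its conservative peak, at 24980246 to 24980655 in an intron 707 bp downstream of the innermost TSS, had a pooled signal of 75.5, with 40.8 in replicate 1 and 36.2 in replicate 2. Both replicates thus held it at a like rank, above 98.3% of all candidates in replicate 1 and 98.1% in replicate 2. Its −log10 global IDR was 2.27 in the conservative list and 2.28 in the other, while in replicates 1 and 2 alone it was 1.02 and 1.66, and the peak was in the thresholded list of neither. Within the conservative list it was weak, since only 15.1% of the 2031 peaks on the main arms had a lower signal, and the median there was 127. The other 7 candidates of emp ranged from 5.51 to 41.7.

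**Figure D2:**
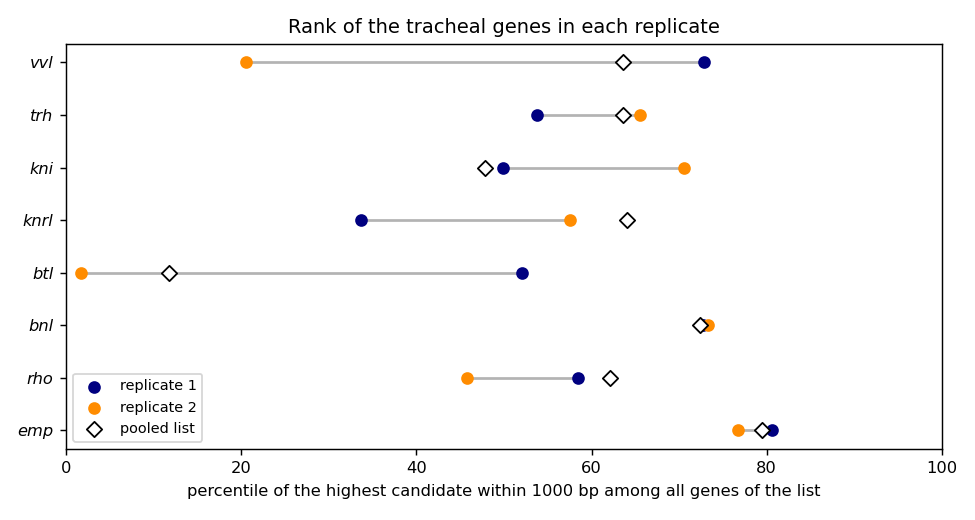
Percentile of the highest candidate within 1000 bp of a TSS of each tracheal gene among all genes of the list (x axis), in replicate 1 (blue), in replicate 2 (orange) and in the pooled list (open diamonds), with 1 row for each gene. The replicates lie together for bnl (72.7 and 73.3) and emp (80.7 and 76.8) and far apart for vvl (72.9 and 20.5) and btl (52.0 and 1.71).

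As the plot of percentiles by replicate shows, no gene but emp exceeded a percentile of 73.3 in any list. Replicate 1 ranked vvl, btl, rho and emp higher, and replicate 2 ranked trh, kni, knrl and bnl higher. Each value in it comes from the list of that replicate, and the candidate need not be the same in both.

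Presence in the replicates was common, as it was over all candidates. Of the 29 candidates, 25 had a summit within 200 bp in the ranked list of replicate 1 and 23 in that of replicate 2, and 20 had one in both, or 69.0%, against 51.6% of all candidates. The matches came from 23 distinct candidates in replicate 1 and 21 in replicate 2, so some neighbours shared a match. Among the conservative peaks 94.0% were matched in both. Of the 20 candidates matched in both, 14 had the higher percentile in replicate 1 and 6 in replicate 2. The 14 count a pair of kni candidates and a pair of emp candidates that each shared the same matches. No such split over all candidates is given here, so it is not read as a trait of these genes.

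The nearest conservative summits lay at other genes, apart from that of emp. The distance from a TSS to the nearest one had a median of 33637 bp over the 8 genes and 12961 bp over all genes with a peak on their chromosome. It was 37195 bp for vvl, 30079 bp for trh, 90859 bp for kni, 79695 bp for knrl, 38798 bp for btl, 10411 bp for bnl, 5611 bp for rho and 707 bp for emp. In the other pooled list it was 16056 bp for trh, at Cdc5, 75940 bp for kni, at CG4042, and 25005 bp for rho. There the other members kept the same distance. In the conservative list the kni and knrl distances exceeded those of 90.0% and 88.0% of all genes. The tracheal genes apart from emp also stood in surroundings with fewer genes than the median over all genes. The median number of other genes within 50 kb was 10 over the 8 genes and 16 over all genes. It was as low as 1 at knrl and 4 at kni, and 18 at emp. Set against genes in the same quartile of gene density, kni exceeded 77.2%, knrl 73.3%, trh 68.1%, btl 73.9%, vvl 49.6%, bnl 29.5%, rho 23.3% and emp 20.2%.

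**Figure D3:**
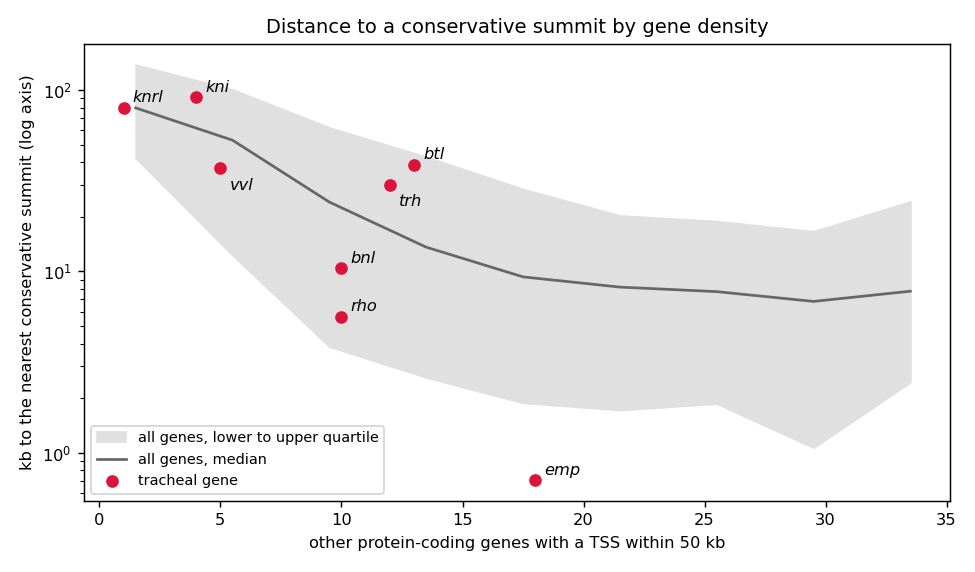
Distance from a TSS to the nearest conservative summit (y axis, kb, log scale) against the number of other protein-coding genes with a TSS within 50 kb (x axis), with the 8 tracheal genes as red points and all genes as a median line with a band between the lower and upper quartiles. Distances are long where genes are few, and knrl, kni, vvl, trh, btl, bnl and rho stand between the quartiles of genes at a like density, while emp stands well under it.

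In the plot of distance by gene density the point of knrl, with 1 other gene, belongs to the first bin, whose genes have a median distance of 79613.5 bp, close to the 79695 bp of knrl. The kni, trh and btl points stand over the median line. The share of genes that were bound was 13.7% in the sparsest quartile, which holds 5 of the 8 genes.

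The sequences under 3 candidates of the tracheal genes and under the nearest conservative summits of 7 of the 8 genes are shown together, so that the word held by most conservative peaks can be looked for in both. That word is CGATA, the core of the DREF-type element TATCGATA, which is known from promoters of widely expressed genes. Capitals mark CGATA on either strand, TATCG being its reverse complement, and in the vvl line the Ken match. Each runs along the plus strand of the release 6 assembly with the summit at its centre.
vvl candidate, chr3L:6790920-6791020: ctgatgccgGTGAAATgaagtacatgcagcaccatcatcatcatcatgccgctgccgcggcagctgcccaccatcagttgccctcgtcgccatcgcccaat
kni candidate, chr3L:20693763-20693863: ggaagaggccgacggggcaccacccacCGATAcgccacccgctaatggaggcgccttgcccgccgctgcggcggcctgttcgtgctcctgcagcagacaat
bnl candidate, chr3R:19836833-19836933: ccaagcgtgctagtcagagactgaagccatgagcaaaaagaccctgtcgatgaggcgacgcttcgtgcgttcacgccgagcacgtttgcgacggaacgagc
Sbds summit, nearest to vvl, chr3L:6752949-6752977: aaattttttatcaaactgtacatcaaagg
Ptpmeg summit, nearest to trh, chr3L:347187-347287: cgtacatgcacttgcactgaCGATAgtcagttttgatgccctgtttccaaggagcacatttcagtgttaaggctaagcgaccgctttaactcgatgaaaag
Pcif1 summit, nearest to kni, chr3L:20786223-20786251: gcctgctctttccgcacTATCGtttgtca
Rcd2 summit, nearest to knrl, chr3L:20540914-20541014: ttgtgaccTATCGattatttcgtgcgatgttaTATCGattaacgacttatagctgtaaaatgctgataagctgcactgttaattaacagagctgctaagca
Hsp110 summit, nearest to btl, chr3L:14036960-14036988: CGATAcctagatagtttctccaaaaacca
MICU3 summit, nearest to bnl, chr3R:19847178-19847278: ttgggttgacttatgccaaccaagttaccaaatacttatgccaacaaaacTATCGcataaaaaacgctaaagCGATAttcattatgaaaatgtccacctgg
Ptp61F intron summit, nearest to rho, chr3L:1469372-1469472: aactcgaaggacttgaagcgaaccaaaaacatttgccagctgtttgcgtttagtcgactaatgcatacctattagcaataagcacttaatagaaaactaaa

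The summit nearest to trh lay 222 bp from a TSS of Ptpmeg, which encodes a tyrosine phosphatase, and had a pooled signal of 460, with 182 in replicate 1 and 277 in replicate 2. The one nearest to kni, 40 bp from a TSS of Pcif1, had 493, with 228 in replicate 1 and 257 in replicate 2. The one nearest to btl, 45 bp from a TSS of the chaperone gene Hsp110, had 405, with 192 and 218 in replicates 1 and 2. These 3 signals were several times the 127 at the middle of the conservative list. The one nearest to knrl, 547 bp from a TSS of Rcd2, had 190, the one nearest to vvl, 50 bp from a TSS of the ribosome maturation gene Sbds, had 116, and the one nearest to bnl, 83 bp from a TSS of the mitochondrial calcium uptake gene MICU3, had 93.0.

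Within 100 bp of the summit, the peak nearest to btl held 6 copies of CGATA, that nearest to kni 4, those nearest to trh and knrl 3 each and that nearest to bnl 2. The peaks nearest to vvl, rho and emp held 0. In that window 75.3% of the conservative peaks and 20.4% of the other candidates held CGATA.

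At rho the nearest conservative summit was of another kind. It lay 5611 bp downstream of the rho TSS in an intron of Ptp61F and 2638 bp from the closest coding TSS, that of Naa30B. Its pooled signal, 73.8, stood beside 37.7 in replicate 1 and 34.9 in replicate 2, and its −log10 global IDR was 2.16. In the ranking of the other pooled list that value was 1.94, so the peak was not in that list, where the nearest summit lay 25005 bp away in an intron of stet, a second rhomboid protease gene. This summit was 731 bp from a TSS of stet and 77 bp from the small non-coding RNA gene sncRNA:CR43701. At the stet peak replicate 1 had a signal of 72.1, with no candidate within 200 bp in replicate 2.

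The count within 50 kb gives the same picture of a neighbourhood. A conservative summit lay within 50 kb of a TSS for 6 of the 8 genes, against 79.1% of all genes, and kni and knrl had 0 such summits. The median was 2.5 summits over the 8 genes and 2 over all genes, with 5 at emp, 3 each at vvl, btl and bnl and 2 each at trh and rho. The other pooled list had 4 at trh and 4 at bnl, and the same counts at the other members. The conservative summits were 18 distinct peaks, of which 14 had a coding TSS within 500 bp and 12 held CGATA within 100 bp.

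**Figure D4:**
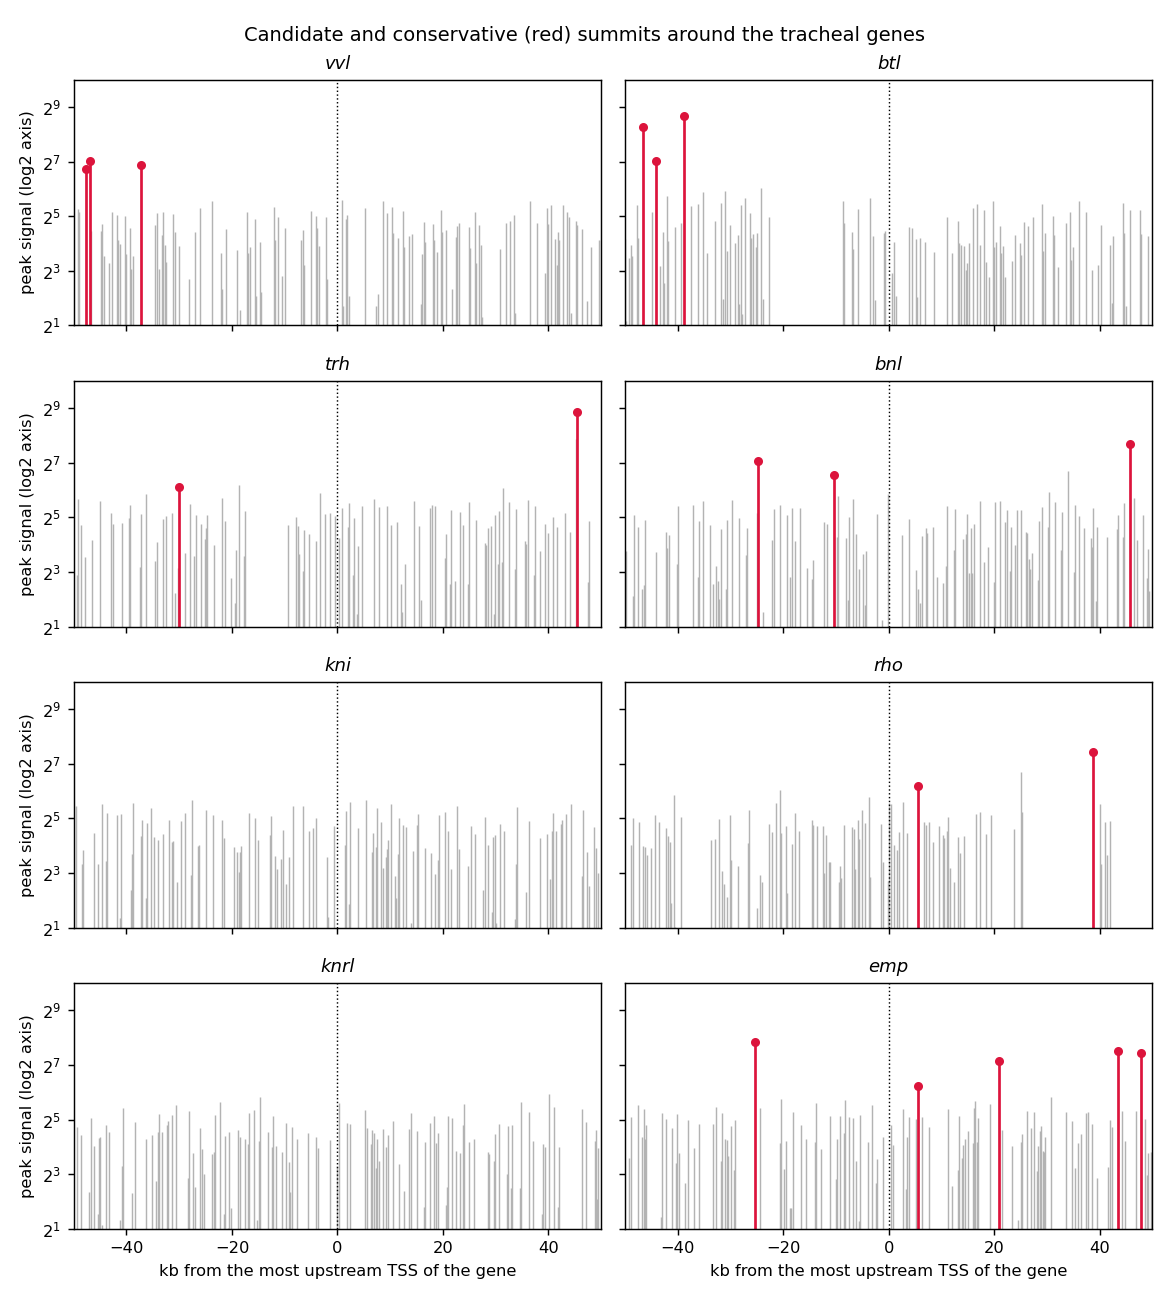
Pooled signal (y axis, log2 scale) of every candidate summit from 50 kb upstream to 50 kb downstream of the most upstream TSS of each tracheal gene (x axis, kb, with the direction of transcription to the right); red lines with points are conservative peaks and grey lines the other candidates. The panels of kni and knrl hold no red line, and in the panel of emp 1 of 5 red lines belongs to the gene, with a signal of 75.5.

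The panels show grey candidates across most of each locus, and the gaps, such as the one upstream of btl, are stretches with no candidate in the deposited list. In the panel of trh a conservative peak lay 30120 bp upstream, in intergenic sequence, with a signal of 68.8, with 41.3 in replicate 1 and 32.8 in replicate 2. Its −log10 global IDR was 2.17 in the conservative list and 2.27 in the other. This peak, and the one in bnl described next, were singled out after their values were seen. The other pooled list held a peak in an intron of bnl, 34066 bp downstream of its TSS and 61 bp from the start of a threonine tRNA gene. Replicate 1 gave it a signal of 93.8 and replicate 2 one of 17.1, and it had a −log10 global IDR of 2.83 in that list and 0.14 in the ranking of the conservative list.

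Words near the 29 candidates were counted beside those near all candidates outside the conservative list, called weaker candidates here. The Ken consensus lay within 100 bp of 8 of the 29 summits, against 25.2% of the weaker candidates and 23.2% of the conservative peaks. The STAT92E word with 3 central bases lay near 0 of the 29 and that with TTC and GAA separated by 4 bases near 1, against 5.08% and 5.53% of the weaker candidates. The word CGATA lay near 3 of the 29, against 20.4% of the weaker candidates, and TATCGATA near 0 of the 29, against 0.50% of the weaker candidates and 29.4% of the conservative peaks. The word TACGTG, which Trachealess binds with Tango, lay near 3, against 4.67% of the weaker candidates and 4.92% of the conservative peaks.

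In the promoter window, from 250 bp before to 50 bp after a TSS, the Ken consensus was found in kni, btl and emp, 3 of the 8 genes, and in 40.3% of all genes. TATCGATA was found in 0 of the 8 and in 10.8% of all genes, 35.6% of the bound ones and 4.95% of the others. CGATA was found in vvl, trh, btl and emp, 4 of the 8, and in 54.0% of all genes, 88.3% of the bound ones and 45.8% of the others. TACGTG was found in trh and btl and in 7.84% of all genes. Across each gene with 10 kb on either side, Ken matches were densest at trh, with 1.78 per kb, and bnl, with 1.69 per kb, against a median of 1.34 per kb over all genes. Of the 82 matches at trh, 24.4% lay within 100 bp of a candidate, and so did 26.5% of the stretch itself.

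Other genes of tracheal development were then counted by the same rule, in 7 lists taken from textbook knowledge. Without the 8 genes, 14 of 66 were bound, or 21.2%, against 19.2% of all genes. Among the transcription factors the bound genes were exd, a partner of Hox proteins, with a peak signal of 120, and rib, a BTB factor of tube morphogenesis, with 81.6, so that 2 of 15 were bound, counting vvl, trh, kni and knrl. In the FGF pathway list 2 of 9 were bound, the heparan sulphate enzyme genes sfl with 169 and botv with 98.3. In the EGF list only S was bound, 1 of 6. It encodes Star, the protein that carries Spitz to Rhomboid, and its peak had a signal of 229, while rho had none within 1000 bp. Among the BMP and Wnt signals 0 of 8 were bound. In the other pooled list tkv and fz were, 2 of 8, against 20.7% of all genes. The gene tkv was also bound in the list of each replicate, and fz in neither.

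The remaining 3 tracheal lists, of cell movement, the tube wall and cell junctions, held 10 of the 15 bound tracheal genes. Of 12 genes of invagination, guidance and fusion 3 were bound, robo1, the receptor for Slit, with 152, shg, which encodes E-cadherin, with 148, and the fusion-cell GTPase gene dnd with 22.9. Of 12 apical and luminal genes 3 were bound, emp with 75.5, the apical determinant crb with 70.1 and the chitin-filament gene rtv with 61.4, and none of these was in the list of either replicate alone. Of 12 septate junction genes 4 were bound, the sodium pump gene Atpalpha with 298, the claudin gene pck with 95.7, bou with 85.2 and Mcr with 84.9. In the other pooled list dnd, crb and Mcr were not bound, while pyd of the guidance list and Nrx-IV of the junction list were. The dnd peak was also in neither replicate list, and the highest candidate within 1000 bp of a dnd TSS, with 49.6, did not pass. These counts of 1 to 4 differ by single genes from the share over all genes.

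**Figure D5:**
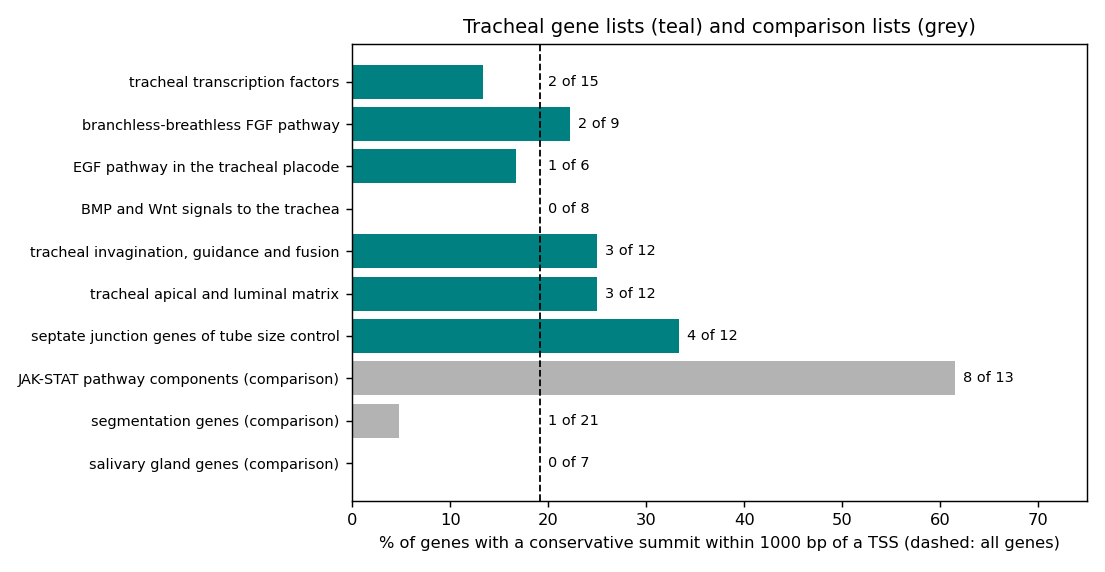
Share of the genes of each list with a conservative summit within 1000 bp of a TSS (x axis, %), with the count beside each bar, for 7 tracheal lists (teal) and 3 comparison lists (grey); the dashed line marks the share over all genes, 19.2%. The tracheal bars lie between 0% and 33.3%, and the bar of JAK-STAT components reaches 61.5%.

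Of the comparison lists in the plot of shares, that of JAK-STAT components stood above all 7 tracheal lists, and the others lay within their range. Of 13 JAK-STAT components 8 were bound, against 19.2% of all genes. Among them were dome, hop and Stat92E, which encode the receptor, the kinase and the transcription factor upstream of vvl, trh and kni. Their peak signals were 390 for dome, 314 for hop and 285 for Stat92E. Also bound were ken itself, Ptp61F, Socs16D, Socs36E and Socs44A. The components upd1, upd2, upd3, et and Su(var)2-10 were not bound. Of 21 segmentation genes only hry was bound, with a signal of 77.2, and it was not bound in the other pooled list or in either replicate list. Of 7 salivary gland genes 0 were bound.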

How the data were processed

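Peak lists from 2 replicates of 1 group were used. The peak signal is the authors' value, deposited with no scale, and the IDR is deposited as −log10. The ranked list of each thresholded list was found by identical coordinates; the −log10 global IDR was 2 or more in all thresholded peaks (IDR 0.01). The precision that depth gives is unknown, with aligner, peak caller and read depth not given in the sources used here. A further 16 columns of the pooled ranked lists name no replicate and were not used. Without a replicate means the list of the other replicate alone. Genes came from Ensembl release 115 and sequence from RefSeq, release 6 (dm6, the build per the labels); coordinates count from 1. Summits were matched between lists within 200 bp. Features were taken in the order UTR, coding exon, intron, intergenic. Named genes were the 8, the genes nearest to their closest summits and the bound genes of each list. The JAK-STAT genes that were not bound were also named, as were some genes bound only outside the conservative list. The genes, lists and words were chosen with earlier results of these data known. Of 122 listed symbols 121 were found, and 6 of these had no candidate within 1000 bp of a TSS and were not counted. An annotation near btl is not reported here. No test was made, because there was 1 group. Distances and word searches were tested on simulated data. Python 3.11.15, numpy 2.4.6, pandas 2.3.3 and matplotlib 3.10.9 were used.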

Additional observations from a re-analysis of the deposited data

How the results depend on the processing

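The count of bound genes among the 8 was again 1 in the other pooled list, within 5000 bp of a TSS, by peak interval and by gene body, where 20.7%, 33.1%, 19.8% and 20.3% of all genes were bound. It was 0 at a global IDR of 0.001, 0 within 500 bp and 0 without either replicate, against 10.4%, 17.3% and, without replicate 1 and without replicate 2, 18.2% and 14.6% of all genes. The count in the tracheal lists, 14 of 66, was 5 at a global IDR of 0.001, against 10.4% of all genes. It was 10 without replicate 1, against 18.2% of all genes, and 11 without replicate 2, against 14.6%. The median distance was 59246.5 bp at a global IDR of 0.001, 28241 bp from the gene body and 34344.5 to 37998.5 bp without a replicate. The median percentile was 55.9 within 2000 bp and 56.1 to 61.6 without a replicate; within 500 bp it had no value, because vvl and kni had no candidate there. The median count of summits was 3 in the other pooled list, 0 within 20 kb, 3.5 within 100 kb and 2 to 2.5 without a replicate. Of the 29 candidates, 12 were matched in both replicates within 100 bp, or 41.4%, against 34.3% of all candidates and 87.5% of the conservative peaks. Values of single genes also changed. At a global IDR of 0.001 the distance was 239503 bp for vvl and 184417 bp for bnl, while those of trh, kni, knrl and btl stayed the same. From the gene body it was 478 bp for rho and 3022 bp for bnl. The percentile of vvl was 20.5 without replicate 1, and that of btl was 52.0 without replicate 2. The Ken consensus lay within 50 bp of 3 of the 29 candidates, against 13.4% of the weaker candidates. Within 250 bp it lay near 17 of the 29, against 50.9% of the weaker candidates. Stricter thresholds and narrower windows leave fewer peaks. The cause of the other changes was not tested. No paired analysis was possible because the series has 1 group. Read depth is unknown, so what it limits cannot be stated.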
